A study of Mus musculus with 16 samples.

Results

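E proteins are the helix-loop-helix transcription factors that set the gene programme of developing T cells, and Id proteins are their inhibitors. The 6 genes described here are the E protein genes Tcf3 (E2A), Tcf12 (HEB) and Tcf4 (E2-2) and the inhibitor genes Id1, Id2 and Id3. They were taken by gene symbol from the count tables of RNA-seq in thymocytes of mice with and without T cell deletion of Tox4. All 6 were found among the 24974 genes that the DP and CD8 tables share, and all 6 passed the filter on low counts in every comparison. The 4th inhibitor gene, Id4, had between 0 and 6 counts in each of the 16 samples and was not tested.

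The experiment measured poly(A) RNA of CD4+CD8+ double-positive (DP) thymocytes from 3 control and 3 cKO mice, and of CD8 thymocytes from 5 control and 5 cKO mice. Every mouse carried floxed Tox4 alleles: controls, titled WT, have the genotype Tox4;F/F, and cKO mice have Tox4;F/F;Lck+ in the DP set and Tox4;F/F;Lck-cre in the CD8 set. The study's methods describe C57BL/6 sex-matched littermates of 6 to 8 weeks, and the labels give no age or treatment. Total counts were 16524506 to 18484568 in DP control, 14583336 to 25981683 in DP cKO, 9420085 to 13530783 in CD8 control and 8514135 to 11828492 in CD8 cKO samples. Cre was driven by the proximal Lck promoter, which is active from the double-negative stage on, so deletion precedes both cell types, and the controls carry no Cre. Both cell types were obtained by flow cytometric sorting, with TCRβ+CD8+ as the gate of the CD8 cells. Cell type goes with the set of libraries, and these cannot be told apart.

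Tox4 itself was read first in each sample, as TMM CPM (counts divided by the library's total, as CPM, and put on a common scale by the trimmed mean of M values, TMM), the unit used here between samples. It was 149, 165 and 173 in DP control samples 1 to 3 and 128, 132 and 129 in DP cKO samples 1 to 3, so the DP groups did not overlap. The log2 fold change was −0.32 (SE 0.11, 95% confidence interval −0.57 to −0.07, edgeR adjusted p = 0.381), and the 2-sided exact permutation test gave p = 0.1, the smallest it can give with 3 against 3 samples. In CD8 cells Tox4 was 195, 193, 205, 208 and 184 in control samples 1 to 5 and 172, 190.3, 179, 239 and 168 in cKO samples 1 to 5. The CD8 groups overlapped, and the library labelled cKO replicate 4 had the highest value of all 16 samples. Its Tox4 level goes against its label, although counts over the whole gene also take reads from exons outside the floxed part and are a weak check of the deletion. The value of CD8 cKO replicate 2 also lay within the range of the CD8 controls. For sorted thymocytes the study reports efficient deletion by Western blot.

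Markers of the labelled cell types were also read, in TPM, which divides counts by exonic length before scaling each sample to the same total and is the unit used here between genes. The 9 DP thymocyte markers summed to 12149 to 15103 TPM in DP control and 11226 to 13450 TPM in DP cKO samples, against 3335 to 3662 TPM in CD8 control and 3114 to 3706 TPM in CD8 cKO samples. By group mean Rag1 was the most abundant of them in DP cells and Cd8b1 in CD8 cells, and none of the 9 was at 0. In CD8 controls Cd8a and Cd8b1, which CD8 cells also express, had means of 1578 and 1787 TPM, where the mean sum was 3534 TPM. Zbtb7b, the transcription factor of the CD4 lineage, was at 6.90 to 12.02 TPM in DP control, 4.13 to 4.22 TPM in DP cKO and 0.936 to 3.15 TPM in all CD8 samples.

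E proteins bind the DNA sequence called the E box as dimers, and Id proteins pair with them but lack the basic region that contacts DNA, so that an E protein held by an Id protein does not bind. In thymocytes E2A and HEB are known for activating the recombinase genes and the pre-TCR alpha chain gene, and for holding DP cells at that stage until positive selection. TCR signalling induces Id3 through Egr1, and Id2 and Id3 are known for limiting E protein activity as CD8 cells mature and for restraining innate-like T cell fates.

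RefSeq promoter sequences, taken on build GRCm38.p6 from 250 bases before to 50 bases after the annotated start, were at hand for 4 of the 6 genes: Tcf3, Tcf12, Id2 and Id3. They are shown because Tcf3 and Tcf12 were lower in CD8 than in DP cells while the 2 abundant inhibitors Id2 and Id3 went in opposite directions. Each is written 5′ to 3′ on the strand of the gene, with every CANNTG, the E box that these proteins bind, in capitals. The windows are chr12:25096043-25096342 on the minus strand for Id2, chr4:136143572-136143871 on the plus strand for Id3, chr10:80433586-80433885 on the minus strand for Tcf3, and chr9:72111770-72112069 on the minus strand for the first of the 3 starts listed for Tcf12.
Id2: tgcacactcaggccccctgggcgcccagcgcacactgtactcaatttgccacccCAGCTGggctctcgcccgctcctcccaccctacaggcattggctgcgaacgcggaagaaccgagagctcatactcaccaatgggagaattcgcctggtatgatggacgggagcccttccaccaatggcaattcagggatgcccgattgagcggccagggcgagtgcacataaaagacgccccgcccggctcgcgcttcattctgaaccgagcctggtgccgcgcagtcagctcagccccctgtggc
Id3: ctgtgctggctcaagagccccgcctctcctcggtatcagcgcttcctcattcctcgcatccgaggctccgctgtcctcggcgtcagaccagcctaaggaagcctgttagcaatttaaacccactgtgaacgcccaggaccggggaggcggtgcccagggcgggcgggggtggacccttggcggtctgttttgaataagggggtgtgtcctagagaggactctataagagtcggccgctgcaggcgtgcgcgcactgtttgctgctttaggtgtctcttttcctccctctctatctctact
Tcf3: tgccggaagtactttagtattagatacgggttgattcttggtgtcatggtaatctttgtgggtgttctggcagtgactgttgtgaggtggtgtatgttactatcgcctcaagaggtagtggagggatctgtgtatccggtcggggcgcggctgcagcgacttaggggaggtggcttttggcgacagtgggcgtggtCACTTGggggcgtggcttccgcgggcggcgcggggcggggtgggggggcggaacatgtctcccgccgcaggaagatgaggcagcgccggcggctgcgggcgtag
Tcf12: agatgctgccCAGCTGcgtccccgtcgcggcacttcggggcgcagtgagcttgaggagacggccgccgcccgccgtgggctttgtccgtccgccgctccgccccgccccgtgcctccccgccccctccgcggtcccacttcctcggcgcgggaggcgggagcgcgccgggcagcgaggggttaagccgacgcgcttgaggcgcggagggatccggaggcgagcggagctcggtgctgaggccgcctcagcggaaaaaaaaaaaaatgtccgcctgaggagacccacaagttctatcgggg

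Motifs were searched on both strands. Id2 holds 1 CANNTG, the palindrome CAGCTG, which starts at −196 from the start site, and CCAAT starts at −159, −120 and −76. Id3 holds no CANNTG and no CCAAT in this window. Tcf3 holds 1 CANNTG at −54, and the start of Tcf12 shown holds 1, again CAGCTG, at −240. The next start listed for Tcf12 holds 2 CANNTG and the last holds 1, with no CAGCTG at either. The last also holds CCAAT, at −238 and −118. CAGCTG and CAGGTG are forms of CANNTG, so the matches overlap. Of 32851 promoters of the same length, 72.3% hold CANNTG, 16.3% CAGCTG, 20.2% CAGGTG and 37.4% CCAAT. A match is a description of the letters and the absence of one concerns this window only.

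Tcf12 encodes HEB and was the most abundant E protein gene of DP cells by mean TPM, although Tcf3 was above it in DP cKO 3 (370.05 against 306 TPM). Tcf12 was at 631, 555 and 594 TMM CPM in DP control samples 1 to 3 and at 629.7, 586 and 578 in DP cKO samples 1 to 3. In CD8 cells it was at 364, 363, 319, 305 and 297 in control samples 1 to 5 and at 347, 372, 334, 382 and 357 in cKO samples 1 to 5. All DP values were above all CD8 values, while control and cKO overlapped within each cell type. Each of the 5 CD8 cKO samples was above the median of the CD8 controls, with 3 of them inside the range of the controls.

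Tcf3 encodes E2A, whose splice forms E12 and E47 cannot be separated by counts per gene. It was at 292, 372 and 394 TMM CPM in DP control and 367, 368 and 489 in DP cKO samples 1 to 3. It was at 214, 239.7, 233, 235 and 249.6 in CD8 control and 267, 264, 211, 232 and 204 in CD8 cKO samples 1 to 5. The lowest DP sample, control 1, was above the highest CD8 sample, cKO 1, and genotypes overlapped in both cell types.

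Tcf4 encodes E2-2, the E protein that plasmacytoid dendritic cells depend on, and it was the minor E protein transcript here. It was at 55.3, 46.5 and 40.9 TMM CPM in DP control and 52.4, 45.3 and 35.8 in DP cKO samples 1 to 3. It was at 22.2, 29.6, 16.3, 14.01 and 17.1 in CD8 control and 25.7, 28.8, 17.2, 18.1 and 19.8 in CD8 cKO samples 1 to 5. CD8 replicate 2 was highest in both genotypes, and no CD8 sample reached the DP range. Markers of plasmacytoid dendritic cells summed to 75.0 to 111 TPM in DP control, 108 to 146 in DP cKO, 171 to 216 in CD8 control and 197 to 217 in CD8 cKO samples, with all 6 present in every group. Their most abundant gene was Bst2 in DP and Pacsin1 in CD8 cells. From DP to CD8 cells only Pacsin1 had a log2 fold change above 0 (2.55 in controls and 2.94 in cKO samples), so the higher sum rests on it. The other 4 markers tested in controls were below 0, from −1.05 for Siglech to −0.08 for Irf8, and 0 of them was called. Of the other 5 in cKO samples, all below 0, 3 were called lower, where 26.8% of all genes were. These were Cox6a2 (−3.95), Siglech (−1.88) and Bst2 (−0.89), while Irf8 was at −0.19 and Spib at −0.0034. The part of these markers in the Tcf4 level was not tested.

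Id2, an inhibitor known for its role in effector and innate lymphocytes, was the only one of the 6 genes that was higher in CD8 cells. It was at 21.1, 34.8 and 48.1 TMM CPM in DP control and 12.4, 33.8 and 28.0 in DP cKO samples 1 to 3. It was at 80.8, 59.3, 94.6, 102 and 77.3 in CD8 control and 85.0, 67.4, 105, 108 and 64.7 in CD8 cKO samples 1 to 5. The lowest value of all 16 samples was in DP cKO 1, and the DP groups overlapped.

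Id3, the inhibitor that TCR signals induce, showed the reverse order of the stages. It was at 72.0, 107 and 115 TMM CPM in DP control and 86.9, 123 and 125 in DP cKO samples 1 to 3. It was at 45.8, 61.8, 45.1, 41.4 and 52.5 in CD8 control and 64.5, 53.1, 36.0, 39.0 and 30.3 in CD8 cKO samples 1 to 5. The genotypes overlapped in both cell types. All DP samples were above all CD8 samples.

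Id1 was the scarcest of the 6, with 28 to 167 raw counts in DP and 7 to 26 in CD8 samples. Its TMM CPM were 1.59, 4.55 and 5.56 in DP control and 2.96, 4.42 and 6.46 in DP cKO samples 1 to 3. They were 2.04, 0.846, 2.05, 1.61 and 1.20 in CD8 control and 0.870, 2.27, 2.52, 0.830 and 1.17 in CD8 cKO samples 1 to 5. DP control 1 lay within the CD8 range, so the stages overlapped for Id1 in controls but not in cKO samples.

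**Figure D1:**
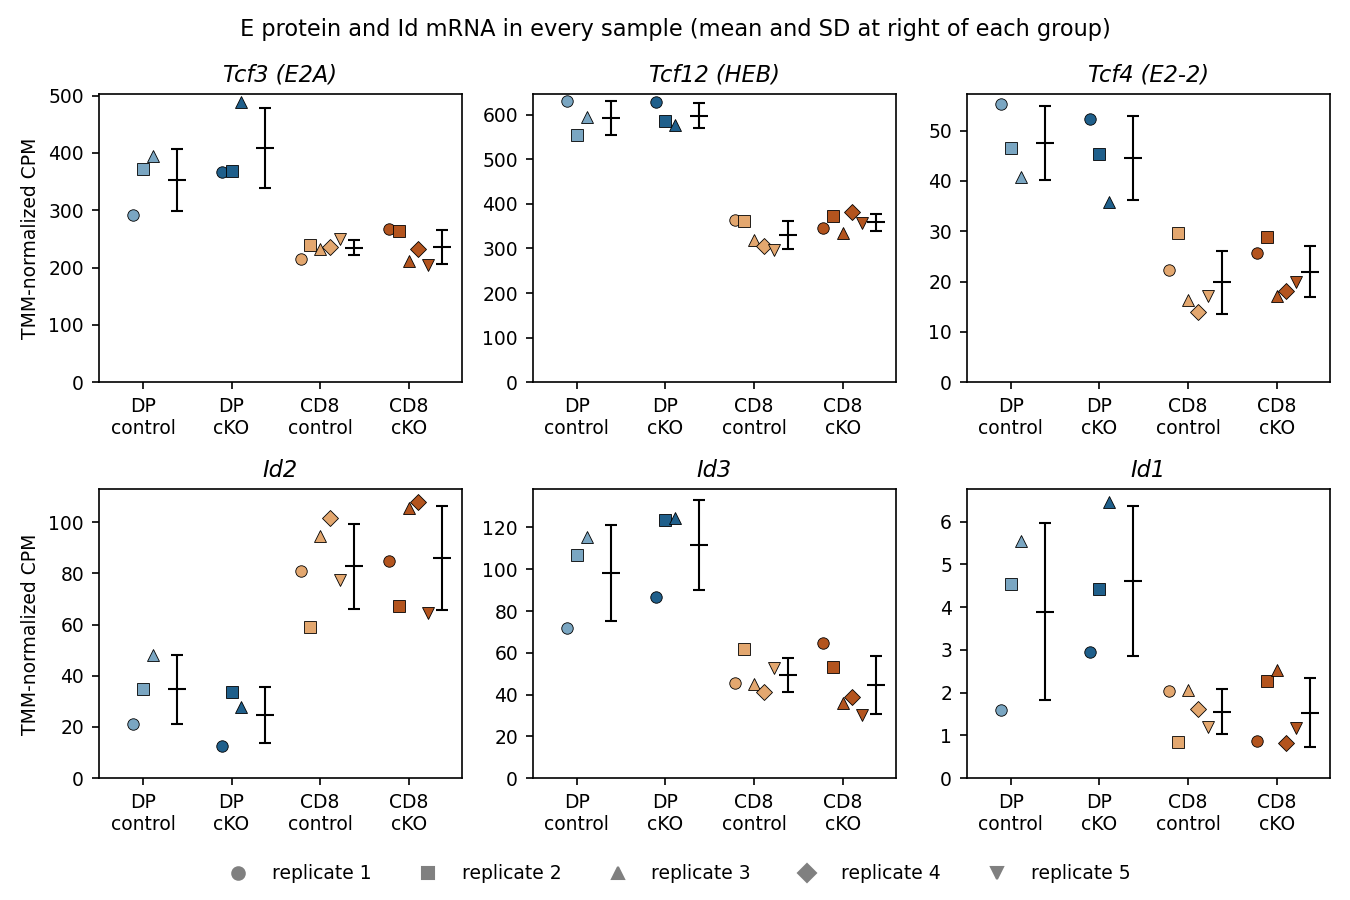
TMM CPM (vertical axis) of Tcf3, Tcf12, Tcf4, Id2, Id3 and Id1 in every sample of DP control, DP cKO, CD8 control and CD8 cKO; marker shapes are replicates 1 to 5, and bars give the group mean and SD. Control and cKO overlap for all 6 genes in both cell types, and Id2 alone is higher in CD8 (mean 82.8 in controls) than in DP cells (34.7).

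Per length, the order of the 6 genes differed by stage. In DP controls mean TPM was 349 for Tcf12, 304 for Id3 and 294 for Tcf3, 3 levels whose samples overlapped, then 80.4 for Id2, 18.0 for Tcf4 and 9.84 for Id1, each clear of the next. DP cKO samples had the same order, at 343, 338, 331, 56.0, 16.5 and 11.3 TPM, but there Tcf4 and Id1 overlapped. In CD8 controls Tcf3 at 209, Tcf12 at 206, Id2 at 205 and Id3 at 164 TPM were neighbours that overlapped, and Tcf4 at 8.02 and Id1 at 4.23 TPM overlapped far below them. In CD8 cKO samples Tcf12 was at 229, Id2 at 217, Tcf3 at 214, Id3 at 150.2, Tcf4 at 8.98 and Id1 at 4.29 TPM. Tcf4 thus made up 2.73% of E protein TPM in DP control, 2.38% in DP cKO, 1.87% in CD8 control and 1.97% in CD8 cKO samples.

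The first question was whether loss of Tox4 goes with a different level of these genes in DP cells. A gene was called when it had a mean TPM of 1 or more, differed by 1.5 times or more and passed edgeR's test at an adjusted p under 0.05. None of the 6 genes was called (0 of 6), and across all genes that could be called 17 of 11187 were (0.152%). The count of the 6 genes at unadjusted p under 0.05 was also 0, against 1079 of all 11748 genes tested, and DESeq2 called 0 of the 6 beside 159 of 11611 genes. No member had groups that did not overlap (0 of 6), where 14.5% of all genes did. With the replicate number as a block, an alternative because pairing by number was not established, 131 genes were called (1.17%) and again 0 of the 6.

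Confidence intervals show how large a DP difference these samples leave room for. The most precise was Tcf12, with a log2 fold change of 0.01 (SE 0.10, 95% interval −0.22 to 0.24, edgeR adjusted p = 0.985). Tcf3 was at 0.21 (SE 0.15, interval −0.14 to 0.55, edgeR adjusted p = 0.753) and Tcf4 at −0.10 (SE 0.18, interval −0.50 to 0.30, edgeR adjusted p = 0.927). The intervals of the 3 E protein genes thus stay inside a difference of 1.5 times in either direction. Those of the 3 inhibitors are wider and reach past it in 1 or both directions. Id2 had the largest estimate, −0.49 (SE 0.38, interval −1.35 to 0.37, edgeR adjusted p = 0.773). Id3 was at 0.19 (SE 0.21, interval −0.28 to 0.65, edgeR adjusted p = 0.853) and Id1 at 0.24 (SE 0.45, interval −0.78 to 1.26, edgeR adjusted p = 0.927). Exact permutation tests on TMM CPM gave p = 0.6 for Tcf3, 1.0 for Tcf12, 0.7 for Tcf4, 0.4 for Id2, 0.5 for Id3 and 0.7 for Id1. These p values and intervals leave the replicate numbers aside. By TMM CPM the cKO sample was below its same-numbered control in 3 of 3 pairs for Id2 and Tcf4 and above it in 3 of 3 for Id3, but by TPM 1 pair of each went the other way. With the block Id2 was at −0.53 (edgeR adjusted p = 0.165), Id3 at 0.196 (edgeR adjusted p = 0.343) and Tcf4 at −0.1045 (edgeR adjusted p = 0.644).

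In CD8 cells the same question had 5 samples a side, and again 0 of the 6 genes was called by edgeR, beside 11 of 11069 genes in all (0.0994%). None of the 6 was under an unadjusted p of 0.05, where 629 of 11227 genes were, and DESeq2 called 0 of them. No member had separate groups (0 of 6), against 1.57% of all genes. Tcf3 was at 0.01 in log2 fold change (SE 0.09, interval −0.19 to 0.20, edgeR adjusted p = 0.999). Tcf12 was at 0.12 (SE 0.09, interval −0.07 to 0.31, edgeR adjusted p = 0.979, exact permutation p = 0.127), higher in 4 of 5 numbered samples. These are the tightest bounds of the 6 genes in CD8 cells.

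The rest of the CD8 estimates were also small beside their intervals. Tcf4 was at 0.14 (SE 0.21, interval −0.30 to 0.59), Id2 at 0.05 (SE 0.17, interval −0.30 to 0.41) and Id3 at −0.15 (SE 0.18, interval −0.54 to 0.25). Id1, with its few counts, had by far the widest interval, −0.89 to 0.87 around −0.01. Without the library labelled cKO replicate 4, the estimates were 0.01 for Tcf3, 0.09 for Tcf12, 0.20 for Tcf4, −0.04 for Id2, −0.10 for Id3 and 0.14 for Id1, so that those of Id2 and Id1 changed sign and 0 of the 6 was called. Leaving that library out moved the count over all genes from 11 to 20.

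The effect of the cKO genotype was then compared between the cell types by an interaction term over all 16 samples, called at an edgeR adjusted p under 0.05. It was called for 0 of the 6 genes, for 13 of 12131 genes in all (0.107%), and by DESeq2 for 0 of the 6. None of the 6 had an unadjusted p under 0.05, against 639 genes. Id2 had the largest difference of effects, 0.54 in log2 (SE 0.41, interval −0.31 to 1.39, edgeR adjusted p = 0.9498), with the estimate below 0 in DP and above 0 in CD8 cells. Id3 was at −0.33 (interval −0.98 to 0.31, edgeR adjusted p = 0.963) and Tcf3 at −0.21 (interval −0.58 to 0.16, edgeR adjusted p = 0.963).

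The stages were compared next, within each genotype. Between control CD8 and control DP cells 5 of the 6 genes were called, where 45.9% of all genes were. Of the 5, 4 were lower in CD8 cells (23.1% of all genes were called lower) and 1, Id2, was higher (22.8% were called higher). The samples of the stages did not overlap for 5 of the 6 genes, against 57.5% of all genes. Calls were thus common among all genes as well, and fewer cells of a type and less RNA per cell cannot be told apart in bulk samples.

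Id2 rose 2.41 times from DP to CD8 controls, a log2 fold change of 1.27 (SE 0.25, edgeR adjusted p = 0.000886), and Id3 fell by 0.97 in log2 (SE 0.17, edgeR adjusted p = 0.000359). Among the E protein genes Tcf12 fell by 0.83 (SE 0.11, edgeR adjusted p = 3.54e-05) and Tcf4 by 1.24 (SE 0.22, edgeR adjusted p = 0.000388). Tcf3 was lower by 0.57 (SE 0.11, edgeR adjusted p = 0.000661), a fold of 1.49 that is just under the 1.5 of the call and passed it in some alternatives, as with no filter on low counts (−0.59) or without DP control 1 (−0.69). For all of these the groups were separate, and the exact permutation test gave p = 0.0357, the smallest it allows with 5 against 3 samples. Id1 fell by 1.32 (SE 0.44, edgeR adjusted p = 0.0223), but its groups overlapped and its exact permutation p was 0.143. That call was lost with the replicate number as a block (−1.13, edgeR adjusted p = 0.171) and without the CD8 samples that express Xist (−1.07, edgeR adjusted p = 0.131).

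The same contrast in cKO samples, which share no library with the controls, had 6 of 6 genes called, where 50.1% of all genes were. Id2 was the only one called higher, as in controls (23.3% of all genes were), and here all of the other 5 were called lower (26.8%). Groups were separate for 6 of 6 genes, against 59.0% of all genes. Id2 rose by 1.78 in log2 (SE 0.30, edgeR adjusted p = 0.000202) and Id3 fell by 1.34 (SE 0.22, edgeR adjusted p = 0.000183). Tcf3 fell by 0.81 (edgeR adjusted p = 0.00018), Tcf12 by 0.76 (edgeR adjusted p = 4.09e-05), Tcf4 by 1.04 (edgeR adjusted p = 0.000469) and Id1 fell by 1.598 (edgeR adjusted p = 0.00382). Here Tcf3, at a fold of 1.75, passed the threshold that it missed in controls. Without the library labelled CD8 cKO replicate 4 all 6 were still called, with log2 fold changes of 1.7003 for Id2, −1.28 for Id3, −0.79 for Tcf3, −0.77 for Tcf12, −0.96 for Tcf4 and −1.44 for Id1.

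**Figure D2:**
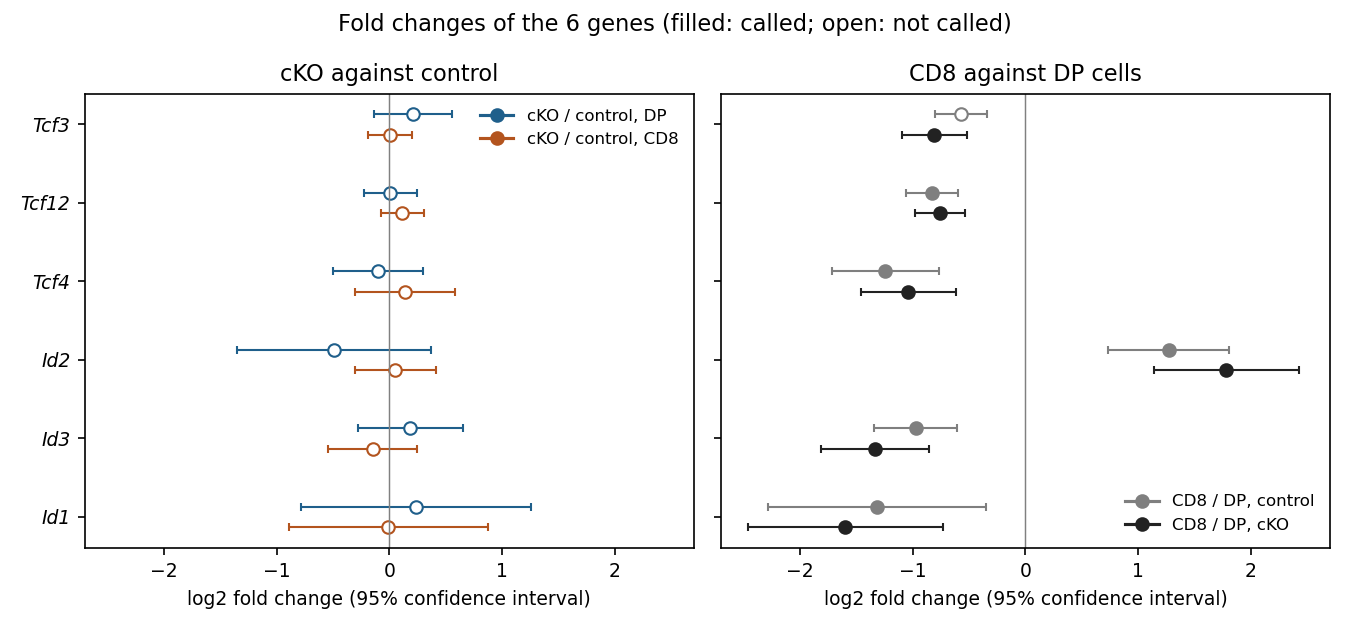
Log2 fold change with 95% confidence interval (horizontal axis) of the 6 genes for cKO against control in DP and CD8 cells (left) and for CD8 against DP cells in control and cKO samples (right); filled points are called and open points are not. All points on the left are open, from −0.49 for Id2 to 0.24 for Id1 in DP cells, and on the right only Id2 lies above 0, at 1.27 in controls and 1.78 in cKO samples.

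Sex differed between the sets of libraries. Y-linked genes summed to 223 to 446 CPM with Xist at or under 0.666 CPM in all 6 DP samples, while Xist was at 3343 to 5066 CPM in CD8 replicates 1, 2 and 5 of both genotypes. CD8 replicates 3 and 4 had Y-linked genes above Xist in both genotypes. CD8 against DP was therefore also run with only these Y-linked CD8 samples, a choice made after seeing the data, and apart from Id1 no member's call in controls was lost.

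The balance of the families was read in each sample as the log2 of summed E protein TPM over summed Id TPM, where 0 means equal amounts of transcript. It was 1.19, 0.62 and 0.51 in DP control and 1.18, 0.49 and 0.70 in DP cKO samples 1 to 3. It was 0.25, 0.35, 0.08, 0.04 and 0.17 in CD8 control and 0.12, 0.45, 0.06, 0.18 and 0.64 in CD8 cKO samples 1 to 5. E protein transcripts exceeded Id transcripts in all 16 samples, and replicate 1 stood highest in both DP groups. Means were 0.78 (SD 0.37) and 0.79 (SD 0.35) in DP control and cKO, and 0.18 (SD 0.13) and 0.29 (SD 0.25) in CD8 control and cKO samples.

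Genotype left the mean balance within the spread of the samples, with a difference of 0.015 in DP and 0.11 in CD8 cells. Between stages the mean was 0.60 lower in CD8 than in DP controls, whose samples did not overlap. In cKO samples it was 0.50 lower, and there CD8 cKO 5 at 0.64 lay above DP cKO 2 at 0.49. As plain ratios, E protein TPM was 1.75 and 1.77 times Id TPM in DP control and cKO, and 1.14 and 1.24 times in CD8 control and cKO samples. No p is given for a score over several genes.

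The stage difference lay mainly in the E protein sum. Summed E protein TPM had means of 661 (SD 22.0) in DP control and 690.1 (SD 15.4) in DP cKO, against 424 (SD 28.5) in CD8 control and 452 (SD 27.9) in CD8 cKO samples. It was 28.6 TPM higher in DP cKO and 28.4 TPM higher in CD8 cKO than in control samples, in 3 of 3 and 4 of 5 numbered pairs, with overlapping groups. Summed Id TPM was nearly level across stages, at 394 (SD 93.4), 405 (SD 85.5), 374 (SD 14.7) and 372 (SD 50.04) in DP control, DP cKO, CD8 control and CD8 cKO samples. Behind this level sum the shares of the inhibitors differed, with Id2 at a mean of 19.998% and 13.3% of Id TPM in DP control and cKO but 54.8% and 58.5% in CD8 control and cKO samples. In CD8 control 2, CD8 cKO 1 and CD8 cKO 2 the share of Id3 was still above that of Id2.

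**Figure D3:**
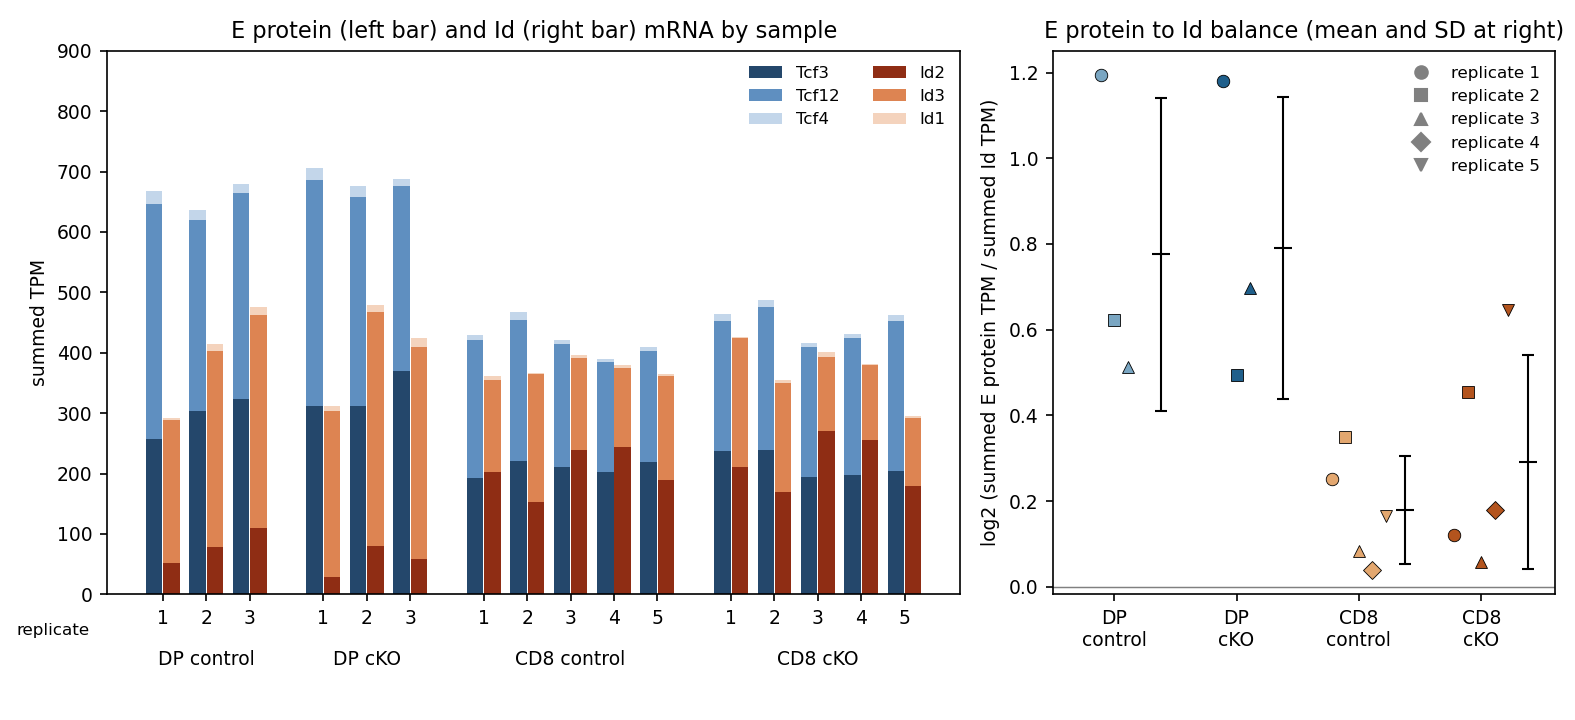
Left, summed TPM of the E protein genes and of the Id genes in each sample as stacked bars (E proteins left, Id genes right); right, log2 of the ratio of these sums per sample, with group mean and SD. CD8 samples have lower E protein sums (390.5 to 487 TPM) than DP samples (637 to 706 TPM), and the log2 ratio is lower in CD8 controls (mean 0.18) than in DP controls (0.78).

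The ratio of Id3 to Id2 was looked at after the values were seen, and so has no test. Its log2 was 2.18, 2.03 and 1.68 in DP control and 3.22, 2.28 and 2.57 in DP cKO samples 1 to 3. The DP groups did not overlap, and the mean was 0.73 higher in cKO samples. Of single genes, 14.5% also had DP groups that did not overlap in TMM CPM, but no such share was computed for ratios of 2 genes. In CD8 cells it was −0.40, 0.48, −0.65, −0.88 and −0.14 in control and 0.02, 0.07, −1.13, −1.05 and −0.68 in cKO samples 1 to 5. The CD8 groups overlapped, with means of −0.32 and −0.56. Id3 was therefore the main inhibitor transcript in every DP sample, at 3.94 times Id2 in controls and 6.72 times in cKO samples, while in CD8 cells the 2 were close, at 0.847 and 0.725 times.

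Genes known as direct targets of E proteins in thymocytes were read next, as a list of 9 that includes the recombinase genes Rag1 and Rag2, the pre-TCR alpha chain gene Ptcra and the terminal transferase gene Dntt. In DP cells 0 of the 9 was called by edgeR or by DESeq2 between cKO and control, where edgeR called 17 of 11187 genes. The median log2 fold change was 0.04, against −0.0011 over all genes tested. Of the 9, 1 gene was under an unadjusted p of 0.05, where 1079 of all 11748 were. That gene was Notch1, a receptor that drives early T cell development, at 292 to 423 TMM CPM in control and 419 to 644 in cKO samples (log2 fold change 0.54, SE 0.18, edgeR adjusted p = 0.349). In CD8 cells 8 of the 9 were tested and 0 was called by edgeR or DESeq2. Notch1 was again the one under an unadjusted p of 0.05, where 629 of 11227 genes were, at 0.21 (SE 0.08, edgeR adjusted p = 0.753).

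Between stages most of the target list was lower in CD8 cells. In controls 7 of 9 were called lower in CD8 than in DP cells and 1 higher, against 23.1% and 22.8% of all genes. Rag1 fell by 7.23 in log2 (edgeR adjusted p = 6.05e-06), from 7116 to 9108 TMM CPM in DP to 12.2 to 123 in CD8 controls. The coreceptor gene Cd4 fell by 5.86, and the values of Rag2 and Dntt were −5.62 and −5.003. Notch1 rose by 0.94 (edgeR adjusted p = 4.2e-05), and the chemokine receptor gene Cxcr4 was at 0.46 (edgeR adjusted p = 0.212). In cKO samples 7 of 9 were called lower and 0 higher, against 26.8% and 23.3% of all genes, and Notch1 at 0.58 missed the fold threshold. Several of these genes are also DP markers, so their fall is part of the stage label.

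A short list held 3 genes known to rise when Id inhibitors are lost: Cxcr5 and Bcl6 of follicular helper T cells and Zbtb16 of innate-like T cells. In DP cells only Bcl6 could be tested between genotypes, at 0.19 (edgeR adjusted p = 0.717). In CD8 cells 0 of 3 was called by edgeR or DESeq2, where edgeR called 11 of 11069 genes. Under an unadjusted p of 0.05 there was 1 of the 3, where 629 of 11227 genes were. It was Cxcr5, at 1.32 to 1.80 TMM CPM in control and 1.604 to 3.14 in cKO samples (0.75, edgeR adjusted p = 0.753). From DP to CD8 controls Zbtb16 rose by 2.44 and Cxcr5 by 1.63, while Bcl6 fell by 1.41, and in cKO samples Cxcr5 rose by 3.12 and Bcl6 fell by 1.4045. Cxcr5 was at 0.170 to 0.889 TMM CPM in DP control and 0 to 0.426 in DP cKO samples. Cxcr5 and Zbtb16 passed the filter on low counts only with CD8 samples, where they are higher, so no conclusion is drawn from their stage values. Zbtb16 was at 0.0567 to 1.53 TMM CPM in DP control and 0 to 0.0641 in DP cKO samples. Between stages in cKO samples its mean of 0.78 TPM was too low for a call. With DP cKO samples at or near 0, no size is given for that difference or for its difference of effects between cell types. The calls of Cxcr5 and Zbtb16 in controls rest on low levels and were lost with Y-linked CD8 samples only (edgeR adjusted p = 0.105 and 0.0568), as were those of Cxcr5 without DP control 1 or 3 and of Zbtb16 without CD8 control 1.

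Upstream, TCR signals reach Id3 through Egr factors, and 9 genes of that route or of its readout were read. In DP cells 0 of 9 was called by edgeR between cKO and control, but all 9 lay below 0, with a median log2 fold change of −0.59 against −0.0011 over all genes, and 6 were under an unadjusted p of 0.05, where 1079 of 11748 genes were. Cd69, a surface protein of recently signalled thymocytes, was at 43.6 to 55.5 TMM CPM in DP control and 27.6 to 34.4 in DP cKO samples, groups that did not overlap. Its log2 fold change was −0.71 (SE 0.14, edgeR adjusted p = 0.129), and over the alternatives its adjusted p ranged from 0.00545, with DESeq2, which called no other gene of the 9 but 159 of 11611 in all, to 0.619. Egr1 was at 159 to 209 TMM CPM in control and 86.1 to 149.6 in cKO samples, with a log2 fold change of −0.59 (SE 0.19, edgeR adjusted p = 0.346). Nr4a1, an immediate early gene of TCR signalling, was at −0.62 and Nab2, a corepressor of Egr factors, at −0.71. With the replicate number as a block, 4 of the 9 were called lower, where 1.17% of all genes were called: Nr4a1 (edgeR adjusted p = 0.0159), Cd69 (0.0235), Egr1 (0.0409) and Nab2 (0.0459). The estimate of Id3, their known downstream gene, was 0.19 and was called in neither fit.

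In CD8 cells the same 9 genes had a median of 0.01, with 5 above and 4 below 0, and 0 was called by edgeR or DESeq2 or was under an unadjusted p of 0.05. For the difference of effects between the cell types all 9 lay above 0, where 5847 of 12131 genes did. Of the 9, 3 were under an unadjusted p of 0.05, where 639 of all genes were, and 0 was called by edgeR or DESeq2. With the replicate number as a block edgeR called Nr4a1 for this difference, where 33 of 12131 genes were called. From DP to CD8 controls 8 of 9 were called higher, with a median of 1.38, where 22.8% of all genes were called higher. Egr3 rose by 3.13 (edgeR adjusted p = 2.29e-07), Egr2 by 1.96, Cd69 by 1.65 and Egr1 by 1.503, whereas Cd5, a negative regulator of TCR signals, was at 0.32 and was not called. In cKO samples 9 of 9 were called higher, against 23.3% of all genes, with Egr3 up by 3.85, Cd69 by 2.45 and Egr1 by 2.06. Id3 was called lower in both contrasts.

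Receptors and Smad proteins of BMP and TGF-beta signalling, which are known inputs to Id genes in many tissues, made a list of 12. In DP cells 10 were tested between genotypes and 0 was called by edgeR or DESeq2, where edgeR called 17 of 11187 genes. Of the 10, 9 lay below 0, where 5895 of 11748 genes did, with a median of −0.17 against −0.0011 over all genes. Tgfbr2, a TGF-beta receptor gene, was the one under an unadjusted p of 0.05, where 1079 of 11748 genes were. It was at −0.35 (SE 0.13, edgeR adjusted p = 0.408). In CD8 cells 11 were tested, 0 was called by edgeR or DESeq2, and the median was 0.03. Under an unadjusted p of 0.05 there was 0, where 629 of 11227 genes were. Between stages 3 of 11 were called higher in CD8 controls and 4 of 11 in CD8 cKO samples, with 9 of the 11 at the level a call needs, where 22.8% and 23.3% of all genes were called higher. Smad7, an inhibitor of the route, rose by 5.57 in controls, from 5.16 to 6.01 TMM CPM in DP to 168 to 356 in CD8 samples, and by 5.74 in cKO samples. Tgfbr2 rose by 2.65 and 3.09, and Bmpr2 by 1.37 and 1.79, in controls and cKO samples.

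**Figure D4:**
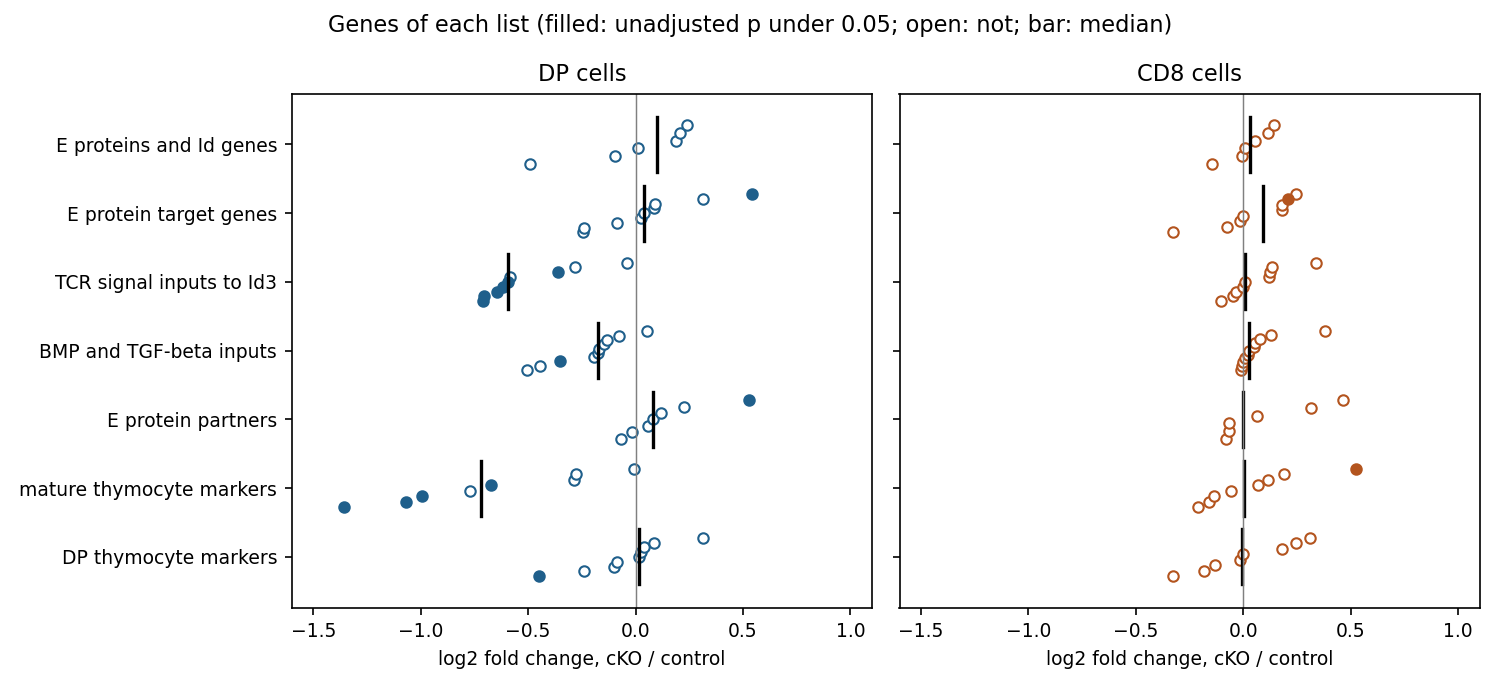
Log2 fold change of cKO over control (horizontal axis) for each tested gene of 7 lists in DP and CD8 cells; filled points have an unadjusted p under 0.05 and bars mark list medians. In DP cells all 9 TCR signal genes and all 8 mature thymocyte markers lie below 0 (medians −0.59 and −0.72), and in CD8 cells both medians are near 0 (0.01 and 0.0033).

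Partners and coregulators of E proteins formed a list of 13, of which 7 passed the filter on low counts in DP and 6 in CD8 cells. Between genotypes 0 was called by edgeR or DESeq2 in either cell type. Under an unadjusted p of 0.05 there was 1 gene in DP cells, where 1079 of all 11748 were. In CD8 cells there was 0, where 629 of all 11227 were. The gene in DP cells was Lmo4, a LIM-only adaptor, at 54.9 to 71.1 TMM CPM in DP control and 76.4 to 104 in DP cKO samples (0.53, SE 0.16, edgeR adjusted p = 0.299). Between control stages 3 of 7 were called, where 45.9% of all genes were. Cbfa2t3, a corepressor of the ETO family, fell by 4.09, while the coactivator genes Crebbp and Ep300 rose by 1.17 and 0.69. In cKO samples 4 of 7 were called, where 50.1% of all genes were, with Cbfa2t3 lower by 3.87, Cbfa2t2 lower by 0.74, Crebbp higher by 1.12 and Ep300 higher by 0.67.

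Markers of mature thymocytes moved beside the TCR signal genes in DP samples. Their 8 genes summed to 429.7, 359 and 327 TPM in DP control and 319.8, 318 and 282 TPM in DP cKO samples 1 to 3, so the groups did not overlap. All 8 lay below 0 in DP cKO, with a median of −0.72 against −0.0011 over all genes. Of the 8, 4 were under an unadjusted p of 0.05, where 1079 of 11748 genes were, 0 was called by edgeR and 2, Bcl2 and Ccr7, by DESeq2, which called 159 of 11611 genes. With the block 3 were called by edgeR, where 1.17% of all genes were: Il7r (adjusted p = 0.0166), Bcl2 (0.0192) and Ccr7 (0.0240). Bcl2, a survival gene that rises after positive selection, was at 46.0 to 58.1 TMM CPM in DP control and 32.0 to 35.5 in DP cKO samples (−0.67, SE 0.14, edgeR adjusted p = 0.129), and over the alternatives its adjusted p ranged from 0.00484, with DESeq2, to 0.427. Zbtb7b was at −1.08 (SE 0.21, edgeR adjusted p = 0.122), and was called with the block (edgeR adjusted p = 0.0319) and by DESeq2 (adjusted p = 0.00131), with adjusted p up to 0.393. Their part in the values of Id2, Cd69 or the Egr genes in DP cells was not tested.

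In CD8 samples the mature markers summed to 3868, 3548, 5975, 6206 and 5299.7 TPM in control and 3622, 3659, 6374, 6465 and 5565 TPM in cKO samples 1 to 5. They were lowest in replicates 1 and 2 of both genotypes. Id3 was highest in those same replicates among the cKO samples but in replicates 2 and 5 among the controls, and Id2 was highest in replicates 3 and 4 of both genotypes, which are also the Y-linked CD8 samples. Replicate 5, with Xist and with markers above replicates 1 and 2, had Id2 at 77.3 TMM CPM in control and 64.7 in cKO samples. As a list, 0 of 8 was called by edgeR or DESeq2 between CD8 genotypes, with a median of 0.0033. The part of sex or of these markers' level in the inhibitor values of CD8 samples was not tested.

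**Figure D5:**
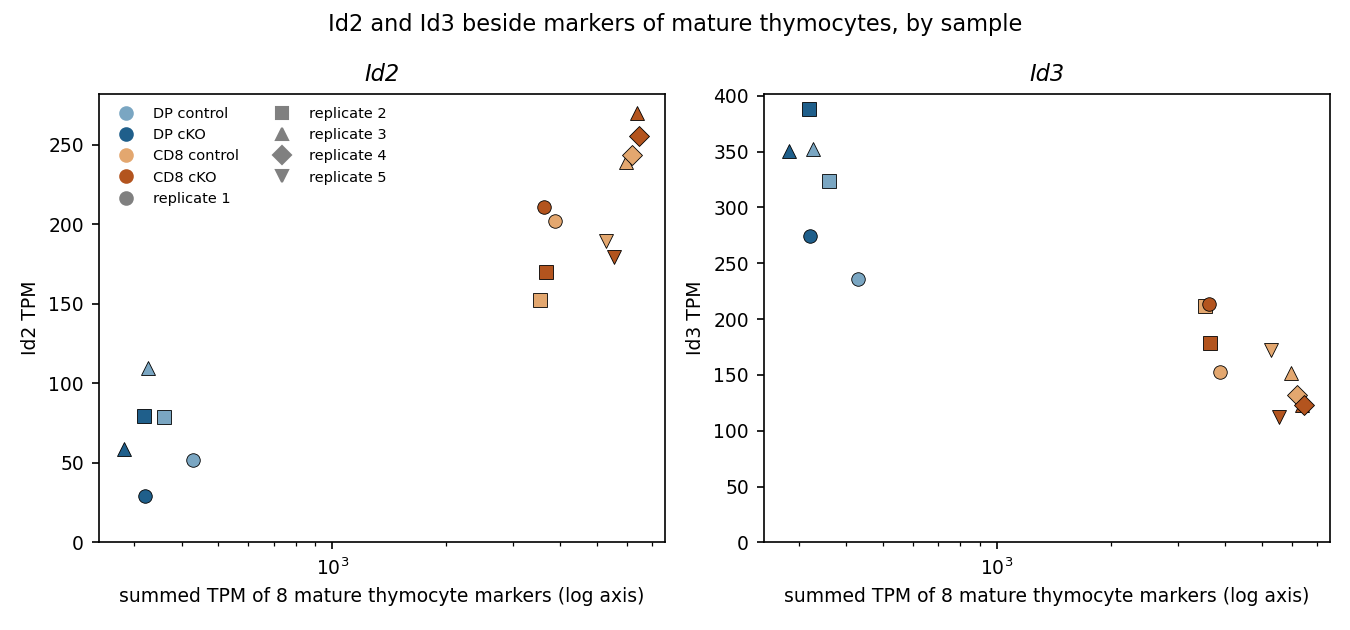
TPM of Id2 (left) and Id3 (right) in each of the 16 samples against the summed TPM of 8 mature thymocyte markers (log horizontal axis), with groups by colour. DP samples lie at 282 to 429.7 TPM of markers and CD8 samples at 3548 to 6465 TPM, and CD8 replicates 3 and 4, the Y-linked ones, have the highest Id2, at 239 to 270.3 TPM.

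Markers of other cells that a sort gate can hold were read as well. Myeloid markers, led by Lyz2 or Cd68, summed to 61.3 to 121 TPM in DP control, 57.9 to 60.2 in DP cKO, 37.5 to 69.8 in CD8 control and 43.2 to 95.9 in CD8 cKO samples, with 5 of 7 under an unadjusted p of 0.05 between DP genotypes (1079 of 11748 genes were), 4 of them lower, 0 called by edgeR and 1, Lyz2, by DESeq2 (159 of 11611 genes). B cell markers, led by Cd79b, summed to 42.1 to 61.9 TPM in DP control and 40.2 to 44.9 TPM in DP cKO samples. All 4 tested there lay below 0, with a median of −1.08, and 0 was called by edgeR or DESeq2. Under an unadjusted p of 0.05 there were 2, Pax5 at −1.69 (edgeR adjusted p = 0.346) and Ms4a1 at −1.68 (edgeR adjusted p = 0.456). These 2 are scarce, at means of 0.29 and 1.01 TPM. The more abundant Cd79b and Cd79a, at means of 38.1 and 7.20 TPM, were at −0.14 (edgeR adjusted p = 0.870) and −0.48 (edgeR adjusted p = 0.780). NK cell markers, with Klrd1 the most abundant in CD8 cells, summed to 81.6 to 101 TPM in CD8 control and 82.9 to 149.7 TPM in CD8 cKO samples, and to 5.47 to 18.7 TPM in DP samples. Hba-a1 and Hbb-bs, the haemoglobin genes of red cells, were at 0 in all samples. The only gene of all lists that edgeR called between CD8 genotypes was Cd163l1 of gamma delta T cells, at 1.42 to 3.08 TMM CPM in control and 6.72 to 11.9 in cKO samples (log2 fold change 1.81, SE 0.26, edgeR adjusted p = 0.00984), and DESeq2, which called 46 of 11995 genes, called Sox13 of the same list too. The call of Cd163l1 was lost without both CD8 replicate 1 samples (1.68, edgeR adjusted p = 0.0698). The 3 gamma delta markers in the tables summed to 6.76 to 13.8 TPM in CD8 control and 16.6 to 29.5 TPM in CD8 cKO samples, and their part in Id2 or Id3 levels was not tested. The library labelled cKO replicate 4 was at 16.6 TPM, above all CD8 controls. The CD8 sort gated on TCRβ+CD8+ cells, and whether gamma delta T, NK, B or myeloid cells remained in the samples was not tested.

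Genes whose profile over the 16 samples was most like that of each member were found by Pearson correlation of log2(TMM CPM + 1) among 10920 genes, as a description without a test, since the points share libraries and the stage difference. For Tcf3 it was Stk11 (r = 0.980), for Tcf12 Slc7a11 (0.987), for Tcf4 Zfp704 (0.982), for Id2 Bhlhe40 (0.965), for Id3 Clip2 (0.970) and for Id1 Ercc2 (0.900). After subtraction of each group's mean, which removes stage and genotype, Stk11 was still the closest to Tcf3 (0.962), followed by Sgf29 (0.919) and the kinase gene Lck (0.917). The closest to Tcf12 was then Efcab14 (0.896), to Tcf4 Sypl (0.934), to Id2 the transcription factor gene Nfil3 (0.937), to Id3 Snord22 (0.928) and to Id1 Mir6973a (0.912).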

How the data were processed

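The authors deposited tables of raw counts per gene, one for 6 DP and one for 10 CD8 samples, and the submitters' processing notes credit fastp 0.13.1, HISAT2 2.1.0 with build mm10 and featureCounts 1.6.1. TPM and CPM were computed here from these counts and the exonic lengths in the tables. R 4.3.3 with edgeR 4.0.16 was used for TMM scaling, filterByExpr on the groups compared, the quasi-likelihood F test and Benjamini-Hochberg adjustment over all genes tested. Each of the 5 comparisons was fitted on the whole table, with DESeq2 1.42.0 as an alternative. Calls needed a mean TPM of 1 or more, a fold of 1.5 or more and an adjusted p under 0.05, and for the difference of effects the adjusted p alone. Exact 2-sided permutation tests used Python 3.11.15 with scipy 1.17.1, and figures matplotlib 3.10.9. All sample columns of both tables were used. Gene models that overlap on the same strand share none of the exons of the 6 genes.

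The members and gene lists were chosen with earlier results of these data known. Named genes are all 6 members, Id4 and Tox4, in each list the genes called (at most the 5 of largest fold change) or, with none, the gene of smallest p, the most abundant gene of each marker list, and the 3 genes most like each member. Further genes of the lists of TCR signals, mature thymocytes, B cells and stage genes, and the ratio of Id3 to Id2, were named after their values were seen. For 2 genes of the lists single-gene results are not reported here.

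Groups share replicate numbers, which the labels do not explain. In DP cells, after group means were subtracted, samples with the same number correlated at 0.120 to 0.643 (mean 0.351) over 3 pairs. The mean for other numbers was −0.168, but subtracting group means pushes it below 0 whenever same numbers lie above 0. It is therefore no separate evidence of pairing. Only 2 of 6 samples correlated best with their own number, so pairing of the DP samples was not established and the replicate block is an alternative only. Alternatives were RLE scaling, DESeq2, no filter, at least 10 counts in every sample, a replicate block, all 4 groups in one fit, adjusted p alone, other forms of the balance, and each sample left out in turn. Total counts of 8514135 to 25981683 per sample limit Id1 most.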

Additional observations from a re-analysis of the deposited data

Results flagged for a closer look

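Within groups of 5 samples, 43 series of values were tested for a sample far from the others by Dixon's ratio, which chance passes about 1 time in 20, and 4 passed. CD8 control 1 had 17741 genes with counts, where the other CD8 controls had 13708 to 14194. The same sample had 66.4 TPM of summed B cell markers, against 20.5 to 28.8 TPM in the other CD8 controls. The library labelled CD8 cKO replicate 4 had 3706 TPM of summed DP thymocyte markers, against 3114 to 3186 TPM in the other CD8 cKO samples. That list includes Cd8a and Cd8b1, and the same library also had the highest sum of CD8 lineage markers among CD8 cKO samples (5459 TPM). CD8 cKO 1 had 217 TPM of summed plasmacytoid dendritic cell markers, against 197 to 198 TPM. No level of a member was among the 4. Whether these samples move the member values was tested only by leaving them out, as given under the dependence on processing.

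Bcl2 differed between cell types in its cKO effect: the effect in CD8 minus that in DP cells was 0.79 in log2 (SE 0.15, edgeR adjusted p = 0.0499). Its estimates were −0.67 in DP and 0.11 in CD8 cells. With 1 sample left out the difference was 0.73 to 0.88 and kept its call in 2 of 16 cases, and over all alternatives its adjusted p ran from 0.000202 with DESeq2 to 0.782 with Y-linked CD8 samples only.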

How the results depend on the processing

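Depth limits Id1, which has 7 to 26 counts in CD8 samples, and groups of 3 limit every DP result. Of 3281 values under an alternative, 3067 kept direction and side of the threshold, 61 were weaker, 21 stronger, 90 moved and 42 reversed. No member was called between genotypes under any alternative, and for all changes below the cause was not tested. In CD8 cells same-numbered samples correlated at 0.0908 at the lowest (mean 0.277), and 5 of 10 samples correlated best with their own number. The mean for other numbers, −0.0719, is again pushed below 0 by the subtraction of group means. Same-numbered CD8 samples were alike in sex in 5 of 5 pairs, but the labels do not explain the numbers.

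The count of DP genes called was 159 with DESeq2, 74 with no filter, 131 with the replicate block and 42 with all 4 groups in one fit, against 17. With 1 sample left out it was 0 to 8: 8 without control 1, 0 without control 2, 4 without control 3, 7 without cKO 1, and 1 without cKO 2 or without cKO 3. The CD8 count, 11, was 46 with DESeq2, 31 with the replicate block and 5 without both replicate 1 samples. With 1 sample left out it was 4 to 20: 4 without control 3, 6 without control 5, 7 without cKO 3 and 20 without the library labelled cKO replicate 4. The count for the difference of effects, 13, was 36 with DESeq2, 33 with the replicate block, 6 without both CD8 replicate 1 samples, 1 with Y-linked CD8 samples only, and 0 to 11 with 1 sample left out. It was 0 without DP control 2 or DP cKO 2, 1 without DP cKO 1, 2 without DP cKO 3 or CD8 cKO 4, 3 without DP control 1 or without CD8 control 3, 4 or 5, CD8 cKO 3, 4 without CD8 control 2, and 5 without CD8 control 1, CD8 cKO 2 or CD8 cKO 5.

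For CD8 against DP controls Tcf3 passed the threshold with no filter (−0.59), the replicate block (−0.59), all 4 groups in one fit (−0.60) and adjusted p alone (−0.57), and among samples left out (−0.69 to −0.48) without DP control 1 or CD8 control 5. Id1 missed it with the replicate block (−1.13) and Y-linked CD8 samples only (−1.07), and among samples left out (−1.69 to −0.97) without DP control 2, DP control 3 or CD8 control 5. The replicate block changed no other call of a member. Beside the DP genes named in the report, it led edgeR to call Sox13 in CD8 cells and Ccr7, Il7r and Nr4a1 for the difference of effects.

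Estimates near 0 changed sign. In CD8 cells Tcf3 was −0.0017 with the replicate block and −0.0612 without both replicate 1 samples, where Id1 was 0.29, Epcam −0.24 and Pax5 0.23. For the difference of effects Id1 was 0.0338 without both CD8 replicate 1 samples and C1qa −2.31 with Y-linked CD8 samples only. By CPM over total counts the DP difference of Tcf12 was −0.141 CPM. With 1 sample left out, DP values ran from −0.80 to −0.17 for Id2, 0.0012 to 0.34 for Id3, −0.14 to 0.58 for Id1, −0.0342 to 0.055 for Tcf12 and −0.23 to 0.0583 for Tcf4. CD8 values ran from −0.25 to 0.15 for Id1, −0.0449 to 0.14 for Id2, −0.0428 to 0.0548 for Tcf3, −1.21 to 0.53 for Ddx3y, −0.0793 to 0.31 for Epcam, −1.29 to 0.31 for Pax5 and −0.44 to 0.15 for Zbtb7b. Differences of effects ran from −0.60 to 0.12 for Id1 and −0.42 to 1.20 for Uty. Leaving out both CD8 replicate 1 samples or keeping Y-linked CD8 samples only was chosen after seeing the data. Id1 had no value with at least 10 counts in every sample in comparisons with CD8 samples.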

Other observations

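Itgae, an integrin gene of the CD8 lineage, was at −1.17 in log2 fold change in DP cKO against control samples (edgeR adjusted p = 0.26), and over the alternatives its adjusted p ranged from 0.0365, with DESeq2, to 0.557. Cox6a2, listed as a plasmacytoid dendritic cell marker, was at 1.94 (edgeR adjusted p = 0.131) in the same comparison, with adjusted p from 0.00642, with DESeq2, to 0.521. The library labelled CD8 cKO replicate 4, with Y-linked genes at 256 CPM, also had Xist at 28.2 CPM, where the other Y-linked CD8 samples had 0.183 to 0.337 CPM.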
